A study of Mus musculus with 14 samples.

Results

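The messenger RNAs of 10 genes that start autophagy or carry cargo into it were followed in mouse embryonic fibroblasts (MEFs) labelled as knockout for Tip60, which encodes the acetyltransferase TIP60. The genes were Ulk1, Ulk2, Rb1cc1, Becn1, Wipi1, Atg5, Map1lc3a, Map1lc3b, Gabarapl1 and Sqstm1. They were taken as a fixed list by symbol, after the Entrez identifiers of the count files had been joined to mouse gene symbols. All 10 of 10 were found among 26270 identifiers, and all 10 passed the filter on low counts, which kept 14327 genes for testing. The fibroblasts came from E13.5 embryos and were grown at 3% oxygen. Tip60+/+ cells (control) were compared with Tip60-/- cells (KO) at day 3 and day 5 of 250 nM 4-hydroxytamoxifen (4-OHT), the drug that switches on tamoxifen-dependent Cre recombinase. The labels carry 1 treatment text for every library. Whether the drug was also added to control cells is therefore not certain, and the Cre driver is not given in the sources used here. There were 3 control and 3 KO libraries at day 3 and 4 of each at day 5, from 4 embryos per genotype. By their labels the 3 day 3 controls came from 2 embryos.

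Autophagy encloses cytoplasm in a double membrane, the autophagosome, and delivers it to the lysosome. The kinases ULK1 and ULK2, bound to the scaffold FIP200 (gene Rb1cc1), start the process and activate a lipid kinase complex built around Beclin 1 (Becn1). WIPI1 then reads the lipid made by that complex, ATG5 belongs to the machinery that attaches ATG8-family proteins (Map1lc3a, Map1lc3b and Gabarapl1 among them) to the membrane, and p62 (Sqstm1) links ubiquitylated cargo to those proteins. TIP60, the product of Kat5, is known to acetylate the ULK1 protein when growth factors are withdrawn. The counts measured mRNA, so neither acetylation nor autophagic flux was measured here.

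The libraries held between 2187168 and 39203154 counts, and both extremes were KO day 3 libraries. Kat5 mRNA was 29.8 to 32.3 CPM (counts scaled to a common library size with TMM factors) in the 7 control libraries and 17.3 to 21.1 CPM in the 7 KO libraries, and the fitted KO level was 62.3% of control at day 3 and 59.6% at day 5. TIP60 protein was not measured. Which exons the deletion removes is not given in the sources used here. Fibroblast markers summed to 16020 to 27550 CPM per library, with 8 of 8 detected in each group. Col1a1, Col1a2 and Vim made up most of that sum, whereas Lum averaged 5.45 CPM in day 3 controls. Skeletal muscle markers summed to 185 to 438 CPM, macrophage markers to 49.7 to 119 CPM and neural and glial markers to 28.4 to 97.5 CPM. Acta1 and Des made up most of the muscle sum. The highest group means of Myod1 and Myog, in day 3 KO cells, were 0.340 and 0.630 CPM. Tubb3 made up most of the neural and glial sum, whereas the highest group means of Elavl3 and Gfap were 0.0640 and 0.254 CPM. Blood cell markers summed to at most 0.350 CPM. Litter was read from the number that opens each embryo label, a meaning that the embryo labels themselves do not state. By that reading no litter held both genotypes, so genotype and litter cannot be told apart. Sex was also uneven, as 5 of 7 KO but 1 of 7 control libraries were male. The labels give day 3 control replicates 1 and 2 the same embryo. The main fit, the SDs and the permutation tests nevertheless counted them as separate libraries. Day 5 control replicate 4, the only control from its litter and the only male control, stood apart. It was the highest of the 4 day 5 controls for 9 of 10 members (90%), against 37.5% of all tested genes. Its cartilage markers summed to 2609 CPM, against 186 to 362 CPM in the other day 5 controls, 82.9 to 176 CPM in day 3 controls, 2311 to 2711 CPM in day 3 KO and 1843 to 3816 CPM in day 5 KO libraries. Col2a1 made up most of the KO sums, averaging 2281 CPM at day 3 and 2585 CPM at day 5. Comp averaged 1.00 CPM in day 3 control and 87.7 CPM in day 3 KO cells, whereas the Sox9 means were 47.1 and 64.0 CPM. The part of these markers and of sex and litter in the results was not tested beyond the fits without that library and with sex as a factor. In bulk RNA, fewer cells of a type and less RNA per cell cannot be told apart.

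The proximal promoters of Sqstm1, Ulk1 and Gabarapl1 are shown because Sqstm1 had the largest KO difference among the members at day 3, Ulk1 was the member higher in KO cells at both days, and Gabarapl1 was lower in KO cells at day 3. The RefSeq promoter table (build GRCm38.p6, the mm10 assembly) held 7 of the 10 members and not Rb1cc1, Becn1 or Map1lc3a. The genes of these 3 span chr11:50200152-50210820, chr5:110784489-110810120 and chr6:129533192-129542331 in that order. Each stretch lies before the gene's start, is written 5′ to 3′ on the gene's strand, and has the GC box letters GGGCGG or their reverse complement in capitals.
Sqstm1 (chr11:50210828-50211070, minus strand): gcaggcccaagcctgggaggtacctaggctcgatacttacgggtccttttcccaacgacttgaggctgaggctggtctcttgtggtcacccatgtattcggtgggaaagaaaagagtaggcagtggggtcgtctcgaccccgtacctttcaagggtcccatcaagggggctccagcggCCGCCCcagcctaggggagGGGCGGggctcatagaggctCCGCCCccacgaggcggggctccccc
Ulk1 (chr5:110810121-110810331, minus strand): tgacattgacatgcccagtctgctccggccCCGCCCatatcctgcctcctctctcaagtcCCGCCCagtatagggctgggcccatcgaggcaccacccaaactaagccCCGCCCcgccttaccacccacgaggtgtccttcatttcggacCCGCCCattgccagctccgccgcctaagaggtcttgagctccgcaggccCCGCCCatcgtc
Gabarapl1 (chr6:129532942-129533159, plus strand): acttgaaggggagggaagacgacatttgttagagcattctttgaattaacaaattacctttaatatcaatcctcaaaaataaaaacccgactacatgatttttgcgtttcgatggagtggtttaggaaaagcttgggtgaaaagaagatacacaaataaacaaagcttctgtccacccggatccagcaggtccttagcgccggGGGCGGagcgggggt
Sqstm1 held 3 such matches, Ulk1 held 5 and Gabarapl1 held 1 in these stretches. The letters are common: 59.5% of the tested genes with a promoter entry held them within 250 bases before the start. CACGTG, the core of the element read by TFEB-type factors, was found in the Atg5 promoter among the 7 members, and 8.36% of tested genes' promoters held it. TGACNNNGC, an antioxidant-response pattern, was found in the Ulk2 promoter, and 12.02% of tested genes' promoters held it. These searches used the 250 bases before the start of each promoter entry. For Atg5 (window chr10:44268089-44268338, gene start 44268322) and Ulk2 (window chr11:61855093-61855342, gene end 61855334, minus strand) that window reached into the gene. Both matches, 14 and 17 bases before the entry's start in that order, lay inside the annotated gene. TGATGNAA (2.04% of tested genes' promoters) and GTAAACA (2.00%) were found in none of the 7. Both strands were searched, and a match is a description of letters in this window only.

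Sqstm1 was the most abundant member and Ulk1 the least abundant in all 4 groups, on the scale of RPKM, in which CPM is divided by gene length and which allows comparison between genes. Sqstm1 averaged 478 ± 39.3 RPKM (SD, n = 3) in day 3 control cells and Ulk1 averaged 9.76 ± 0.470 RPKM (SD, n = 3). In those control cells Map1lc3a (64.2 RPKM), Gabarapl1 (61.9) and Map1lc3b (60.7) followed Sqstm1, and their library ranges overlapped. Becn1 (47.9 RPKM), Wipi1 (39.1), Rb1cc1 (26.5), Ulk2 (16.0) and Atg5 (14.4) came next, and the libraries of each lay above those of the gene after it. In day 5 KO cells the order was Sqstm1 (177 RPKM), Map1lc3b (69.6), Becn1 (53.3), Gabarapl1 (41.1), Wipi1 (39.8), Map1lc3a (37.1), Rb1cc1 (29.5), Ulk2 (16.4), Atg5 (16.0) and Ulk1 (13.1). Map1lc3a thus ranked 2 of 10 in day 3 control cells and 6 of 10 in day 5 KO cells, although its range overlapped those of Gabarapl1 and Wipi1 respectively.

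At day 3, 5 of the 10 members differed between KO and control cells at an adjusted p under 0.05 (edgeR's quasi-likelihood test, Benjamini-Hochberg adjustment over all tested genes). Of all tested genes 50.9% passed the same test, so this count is close to the background. Ulk1 and Rb1cc1 were higher in KO cells (2 members, against 24.6% of all tested genes) and Map1lc3a, Gabarapl1 and Sqstm1 were lower (3 members, against 26.2%). At day 5, 4 of 10 passed, against 52.5% of all tested genes, with Ulk1 and Becn1 higher (26.3% of all tested genes were higher) and Wipi1 and Map1lc3a lower (26.2%). Those 4 members also had groups without overlap at day 5, as had 47.4% of all tested genes. The members' median difference was 0.06 log2 units at day 3 and 0.00 at day 5. Their median absolute difference was 0.30 log2 units at day 3, against 0.43 over all tested genes, and 0.20 against 0.37 at day 5. Tested against a 1.5-fold change, 1 member (Sqstm1) passed at day 3, against 15.9% of all tested genes, and 0 passed at day 5, against 11.9%.

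**Figure D1:**
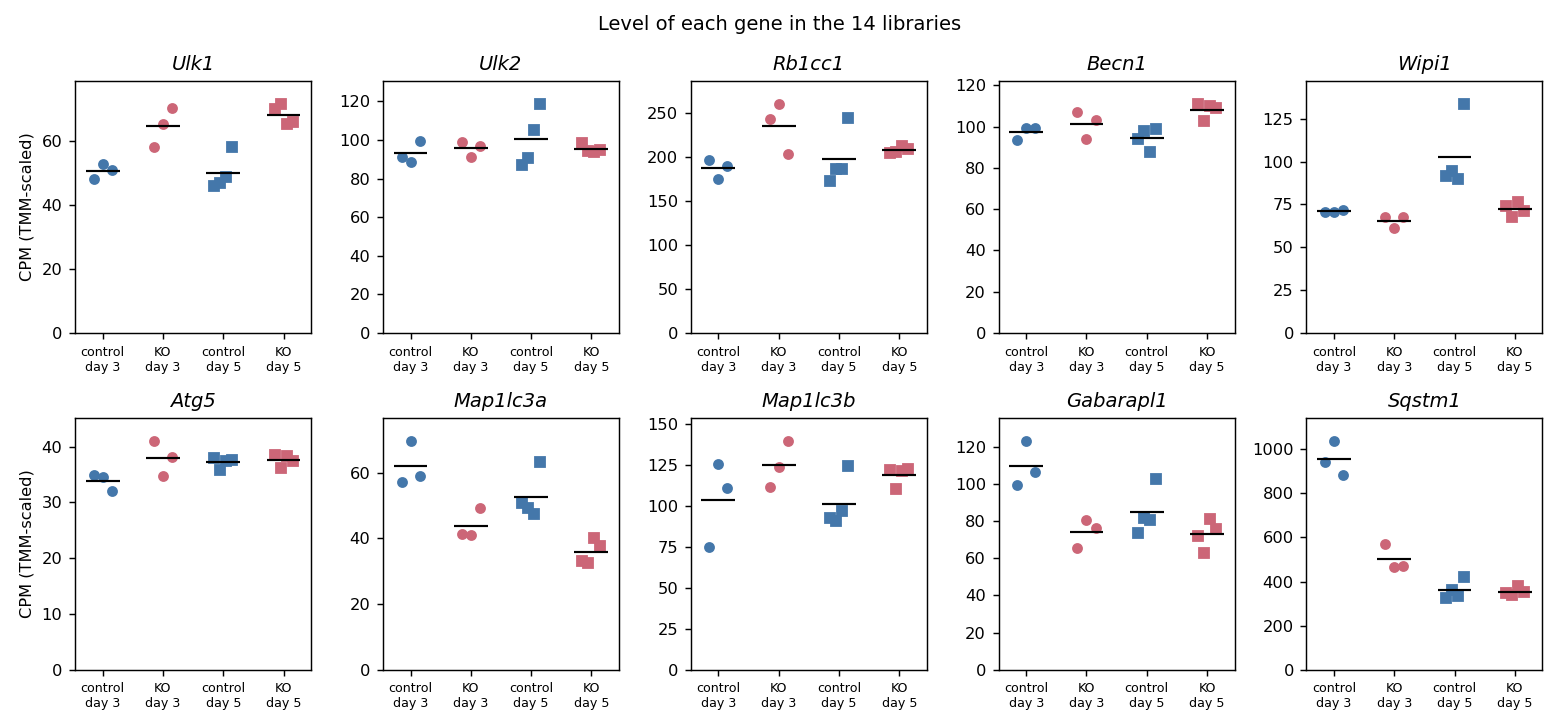
TMM-scaled CPM (vertical axis, linear, from 0) of the 10 members in each of the 14 libraries, by group (blue control, red KO; circles day 3, squares day 5), with black bars for group means. Day 3 control libraries stand far above the rest for Sqstm1 (883 to 1039 CPM), and KO libraries stand above controls at both days for Ulk1.

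Among the initiation kinases, Ulk1 was higher in KO cells at both days and Ulk2 passed the test at neither. Ulk1 measured 48.1, 52.9 and 51.1 CPM in day 3 control replicates 1, 2 and 3, and 58.3, 65.3 and 70.5 CPM in day 3 KO replicates 2, 3 and 4. All 3 KO libraries lay above all 3 controls. The log2 difference was 0.35 ± 0.098 (SE; adjusted p = 0.00896), and the exact two-sided permutation test gave p = 0.1, the smallest that 3 against 3 allows. At day 5 Ulk1 measured 46.0, 47.1, 48.9 and 58.3 CPM in control replicates 1 to 4 and 69.96, 71.7, 65.4 and 66.1 CPM in KO replicates 1 to 4. Again no KO library overlapped the controls, whose highest was replicate 4. The KO level was 136% of control, a log2 difference of 0.45 ± 0.083 (SE; adjusted p = 0.000455; exact two-sided permutation p = 0.0286, the smallest that 4 against 4 allows). At day 3 the call was lost when KO replicate 4 was left out (adjusted p = 0.0518).

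Ulk2 (chr11:61775598-61855334) averaged 93.2 ± 5.51 CPM in control and 95.7 ± 4.17 CPM in KO cells at day 3 (SD, n = 3 each), a log2 difference of 0.04 (adjusted p = 0.738). At day 5 it averaged 100.4 ± 14.5 and 95.4 ± 2.19 CPM (SD, n = 4 each), with a log2 difference of -0.07 (adjusted p = 0.487). Taken as a ratio within each library, which does not depend on scaling, Ulk1 RPKM divided by Ulk2 RPKM averaged 0.610 in day 3 control and 0.758 in day 3 KO cells, and 0.560 and 0.801 at day 5. The day 3 ranges met, with a highest control of 0.666 and a lowest KO of 0.657, and the day 5 ranges were apart. These ratios were chosen after the values were seen and are descriptions.

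Rb1cc1 (chr1:6214634-6276375), the FIP200 scaffold that both kinases need, measured 196, 174 and 189 CPM in the 3 day 3 controls and 243, 260 and 203 CPM in the 3 day 3 KO libraries. The KO libraries were all above the controls, with KO replicate 4 near them. The log2 difference of 0.33 ± 0.118 (SE; adjusted p = 0.0300) depended on single libraries. It no longer passed without control replicate 2 (adjusted p = 0.105), control replicate 3 (0.0613), KO replicate 2 (0.0808) or KO replicate 3 (0.112), nor with sex as a factor (0.112). At day 5 Rb1cc1 averaged 196.9 ± 32.0 CPM in control and 208 ± 3.53 CPM in KO cells (SD, n = 4 each), a log2 difference of 0.08 (adjusted p = 0.536). Control replicate 4 was at 244 CPM, and without it the log2 difference was 0.20 (adjusted p = 0.0379). Of the other subunits, Atg13 had a log2 difference of -0.29 at day 3 (adjusted p = 0.0890), with every KO library below every control. Atg13 was higher in KO cells at day 5 by 0.33 log2 units (adjusted p = 0.0255), although the groups overlapped. The change of effect was 0.62 (adjusted p = 0.0323), and between the days Atg13 fell by 0.59 log2 units in control cells (adjusted p = 0.00166). Atg101 had log2 differences of 0.05 at day 3 (adjusted p = 0.841) and 0.28 at day 5 (adjusted p = 0.117).

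**Figure D2:**
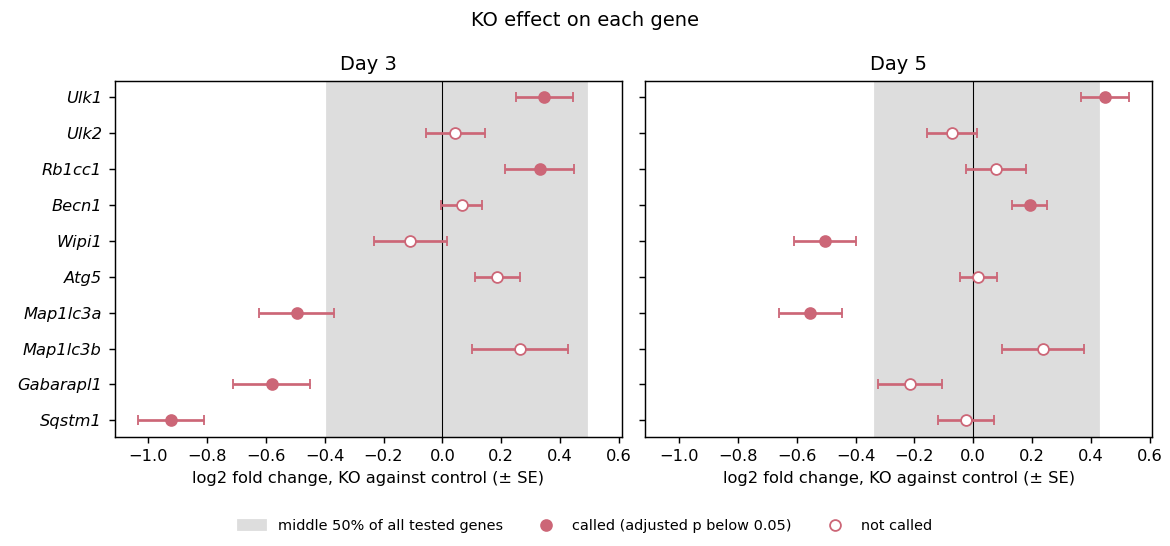
Log2 difference between KO and control cells (horizontal axis) for each of the 10 members at day 3 and day 5, with bars of 1 SE, filled points for an adjusted p under 0.05 and a grey band over the middle 50% of all tested genes. Sqstm1 stands at -0.92 at day 3 and -0.02 at day 5, whereas Map1lc3a stands at -0.50 and -0.55.

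Downstream of the kinases, Becn1 was slightly higher and Wipi1 lower in KO cells at day 5. Becn1 (chr11:101288258-101302286) measured 94.1, 97.9, 87.5 and 99.1 CPM in day 5 controls and 111, 103, 110 and 109 CPM in day 5 KO cells. The groups did not overlap. The log2 difference was 0.19 ± 0.060 (SE; adjusted p = 0.0150; exact two-sided permutation p = 0.0286), and it lost the call without control replicate 3 (adjusted p = 0.0518). At day 3 Becn1 averaged 97.4 ± 3.46 and 101 ± 6.74 CPM (SD, n = 3 each), and the log2 difference was 0.07 (adjusted p = 0.454).

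Wipi1 (chr11:109573521-109611389) measured 91.9, 94.6, 90.1 and 134 CPM in day 5 controls and 74.0, 68.0, 76.4 and 71.1 CPM in day 5 KO cells. Every KO library lay below every control, and control replicate 4 was far above the other controls. The log2 difference was -0.50 ± 0.104 (SE; adjusted p = 0.00107; exact two-sided permutation p = 0.0286). Without control replicate 4 it was -0.35 (adjusted p = 0.000133). At day 3 Wipi1 measured 70.9, 70.6 and 71.7 CPM in controls and 67.7, 61.1 and 67.6 CPM in KO cells. These groups did not overlap either, but the log2 difference of -0.11 did not pass (adjusted p = 0.485). Over all tested genes the day 3 groups did not overlap for 57.8%.

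Atg5 (chr10:44268322-44364299), whose protein is joined to ATG12 in the conjugating enzyme, averaged 33.8 ± 1.52 CPM in control and 38.0 ± 3.16 CPM in KO cells at day 3 (SD, n = 3 each). The ranges overlapped, with control replicate 1 at 34.9 CPM and KO replicate 3 at 34.8 CPM. The log2 difference of 0.19 missed the threshold (adjusted p = 0.0530) and passed it without KO replicate 3 (adjusted p = 0.0221). At day 5 it averaged 37.2 ± 0.959 and 37.6 ± 1.12 CPM (SD, n = 4 each), with a log2 difference of 0.02 (adjusted p = 0.835).

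The ATG8-family members did not move together. Map1lc3a (LC3A) and Gabarapl1 were lower in KO cells at day 3, Map1lc3a also at day 5, and Map1lc3b (LC3B) passed at neither day. Map1lc3a (chr2:155276364-155278073) measured 57.2, 69.7 and 59.0 CPM in day 3 controls and 41.2, 40.9 and 49.2 CPM in day 3 KO cells. At day 5 it measured 50.6, 49.1, 47.3 and 63.1 CPM in controls and 33.1, 32.5, 40.0 and 37.8 CPM in KO cells. KO and control libraries did not overlap at either day. The log2 differences were -0.50 ± 0.127 (SE; adjusted p = 0.00491; exact two-sided permutation p = 0.1) at day 3 and -0.55 ± 0.107 (SE; adjusted p = 0.000636; exact two-sided permutation p = 0.0286) at day 5.

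Gabarapl1 measured 99.7, 123 and 106 CPM in day 3 controls and 65.6, 80.8 and 76.3 CPM in day 3 KO cells. No library of one group reached the other. The log2 difference was -0.58 ± 0.130 (SE; adjusted p = 0.00204; exact two-sided permutation p = 0.1). At day 5 it measured 73.9, 81.6, 80.5 and 103 CPM in controls and 72.2, 62.9, 81.0 and 75.7 CPM in KO cells, with overlapping groups. The log2 difference there was -0.21 (adjusted p = 0.114), and with sex as a factor it was -0.37 (adjusted p = 0.0017).

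Map1lc3b (chr8:121590438-121598760) measured 74.999, 126 and 111 CPM in day 3 controls and 111, 124 and 140 CPM in day 3 KO cells. Control replicate 1 was low and the groups overlapped, with a log2 difference of 0.26 (adjusted p = 0.193). At day 5 it measured 92.5, 90.9, 96.8 and 124 CPM in controls and 122, 111, 122 and 123 CPM in KO cells. Only control replicate 4 reached the KO range. The log2 difference was 0.24 (adjusted p = 0.169), and 0.35 without that library (adjusted p = 0.0347). Zcchc14, which shares 64 bases of annotation with Map1lc3b, was at 93.1 to 123 CPM, and the strand setting of the counting is not given in the sources used here.

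Because these members are near relatives, their make-up within a library was described with Gabarap and Gabarapl2, the other two ATG8 genes of the wider list. Gabarap was lower in KO cells, at 178 ± 15.5 CPM against 345 ± 36.4 CPM at day 3 (SD, n = 3 each) and 126 ± 6.75 against 283 ± 38.4 CPM at day 5 (SD, n = 4 each). Its log2 differences were -0.95 (adjusted p = 1.18e-05) and -1.17 (adjusted p = 5.01e-07). As a share of the 5 genes' summed RPKM, Gabarap made up 60.6% in day 3 control and 47.7% in day 3 KO cells, then 59.0% and 40.6% at day 5. Map1lc3b made up 11.8% and 22.0% at day 3 and 13.8% and 25.2% at day 5. The share of Map1lc3a stayed between 12.7% and 13.6% over the 4 group means, although its level was lower in KO cells. Gabarapl1 made up 12.2% and 12.6% at day 3 and 11.2% and 14.9% at day 5. Gabarapl2 made up 2.75% and 4.15%, then 3.31% and 5.89%. A share also moves with the other genes in the sum, of which Gabarap was the largest. Map1lc3b itself passed the test of KO against control at neither day. The ratio of Map1lc3b RPKM to Map1lc3a RPKM was 0.939 in control and 1.61 in KO cells at day 3, and 1.08 and 1.88 at day 5, and the groups did not overlap. Shares and ratios were chosen after the values were seen, and carry no test. How the counting treated reads that match more than 1 place, such as a gene and a processed copy, was not given either, so levels of these short related genes are uncertain to that extent.

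**Figure D3:**
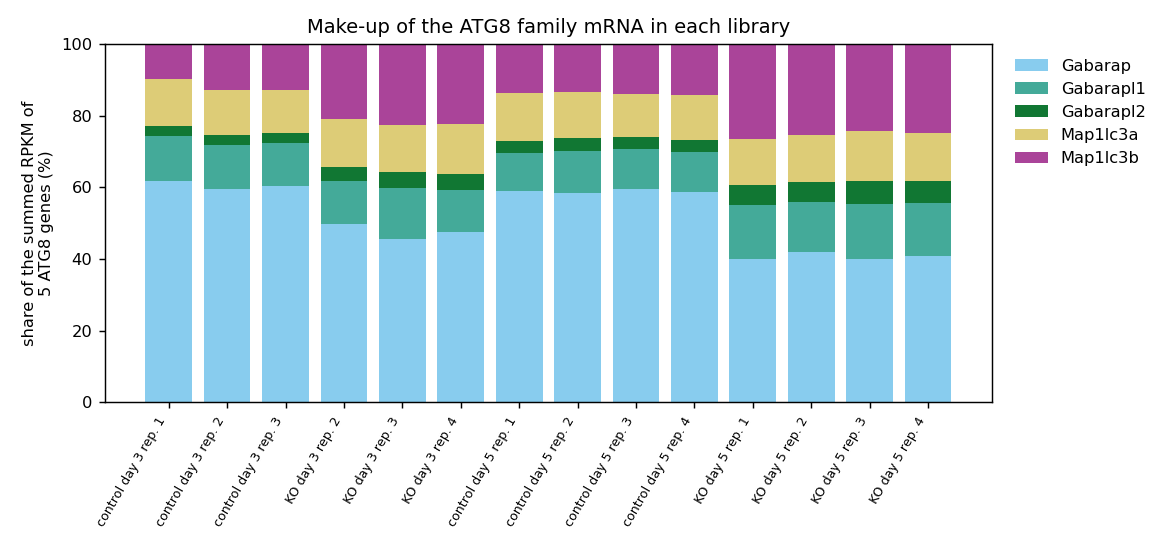
Share of the summed RPKM of 5 ATG8-family genes (vertical axis, percent, stacked) in each of the 14 libraries. The Gabarap share averages 60.6% and 59.0% in control cells and 47.7% and 40.6% in KO cells at day 3 and day 5.

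Sqstm1, which encodes the cargo receptor p62, was the member that differed most between KO and control cells at day 3. It measured 943, 1039 and 883 CPM in day 3 controls and 571, 466 and 473 CPM in day 3 KO cells. Every KO library was far below every control. The KO mean was 52.7% of the control mean, with a log2 difference of -0.92 ± 0.112 (SE; adjusted p = 1.57e-05; exact two-sided permutation p = 0.1). At day 5 it measured 325, 363, 333 and 422 CPM in controls and 348, 341, 379 and 351 CPM in KO cells. The KO range lay within the control range, with a log2 difference of -0.02 (adjusted p = 0.846).

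The test of the change in KO effect between the days was passed by 1 member, Sqstm1, against 14.3% of all tested genes. The day 5 effect minus the day 3 effect was 0.90 ± 0.148 log2 units (SE; adjusted p = 0.00154). With the embryo as a block, which pairs the days within an animal, it was 1.03 (adjusted p = 0.00197). The largest other changes were 0.36 for Gabarapl1 (adjusted p = 0.168) and -0.39 for Wipi1 (adjusted p = 0.119). The Gabarapl1 value was 0.49 with the embryo block (adjusted p = 0.0484), 0.41 with sex as a factor (adjusted p = 0.0205) and 0.48 without day 5 control replicate 4 (adjusted p = 0.0279), each past the threshold. Within single embryos, day 5 Gabarapl1 was 74.1%, 59.9% and 75.7% of its day 3 level in the control pairs and 95.9%, 100.3% and 99.2% in the KO pairs. The control values were all below the KO values, but the first 2 control pairs share an embryo label and the same day 5 library.

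Between day 3 and day 5 in control cells, 3 members passed, against 38.3% of all tested genes. Sqstm1 fell to 37.8% of its day 3 level, a log2 difference of -1.40 ± 0.104 (SE; adjusted p = 2.37e-07). Wipi1 rose by 0.53 ± 0.115 log2 units (SE; adjusted p = 0.00212), or by 0.38 without day 5 replicate 4 (adjusted p = 0.000253). Gabarapl1 fell by 0.38 ± 0.118 log2 units (SE; adjusted p = 0.0214), a call lost without day 3 replicate 2 (adjusted p = 0.118), day 5 replicate 1 (0.0630) or day 5 replicate 3 (0.0512). Map1lc3a had a log2 difference of -0.24 (adjusted p = 0.119), which passed without day 5 replicate 4 (-0.34, adjusted p = 0.0151).

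In KO cells 1 member passed between the days, against 12% of all tested genes. Sqstm1 was lower at day 5 by a log2 difference of -0.51 ± 0.104 (SE; adjusted p = 0.00567). Within single embryos sampled on both days, day 5 Sqstm1 was 34.5%, 31.3% and 37.6% of its day 3 level in 3 control pairs, of which 2 share an embryo label and the same day 5 library, and 59.7%, 81.3% and 74.2% in 3 KO pairs. The lowest KO value was above the highest control value. The comparisons share libraries: the day 3 controls enter both the KO difference at day 3 and the day difference in controls.

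**Figure D4:**
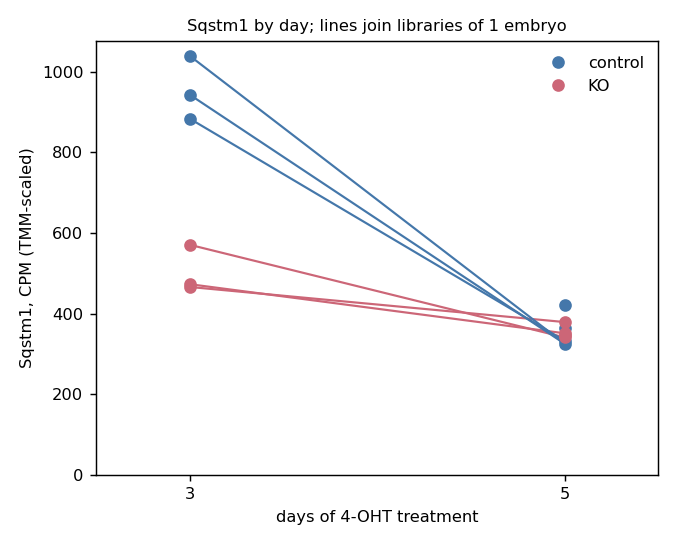
Sqstm1 in TMM-scaled CPM (vertical axis) at day 3 and day 5 (horizontal axis), with 1 point per library and lines joining libraries of 1 embryo. Control cells start at 883 to 1039 CPM and KO cells at 466 to 571 CPM, and all day 5 libraries lie between 325 and 422 CPM. Day 3 control replicates 1 and 2 share an embryo label and are joined to the same day 5 library.

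The wider autophagy lists held 86 genes beside the members, all tested. At day 3, 45 of them passed (14 higher and 31 lower in KO cells), or 52.3% against 50.9% of all tested genes, and 36.0% were lower against 26.2% of all tested genes. At day 5, 46 passed (22 higher and 24 lower), or 53.5% against 52.5%. The change in KO effect was called for 12 of 86 (9 higher and 3 lower), or 14.0% against 14.3% of all tested genes. Between the days 33 passed in control cells, or 38.4% against 38.3% of all tested genes. Of these 3 were higher and 30 lower (34.9%, against 19.9% of all tested genes). In KO cells 18 passed (20.9%, against 12% of all tested genes), 3 higher and 15 lower (17.4%, against 7.06% of all tested genes). No set test was made, and these counts are descriptions.

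**Figure D5:**
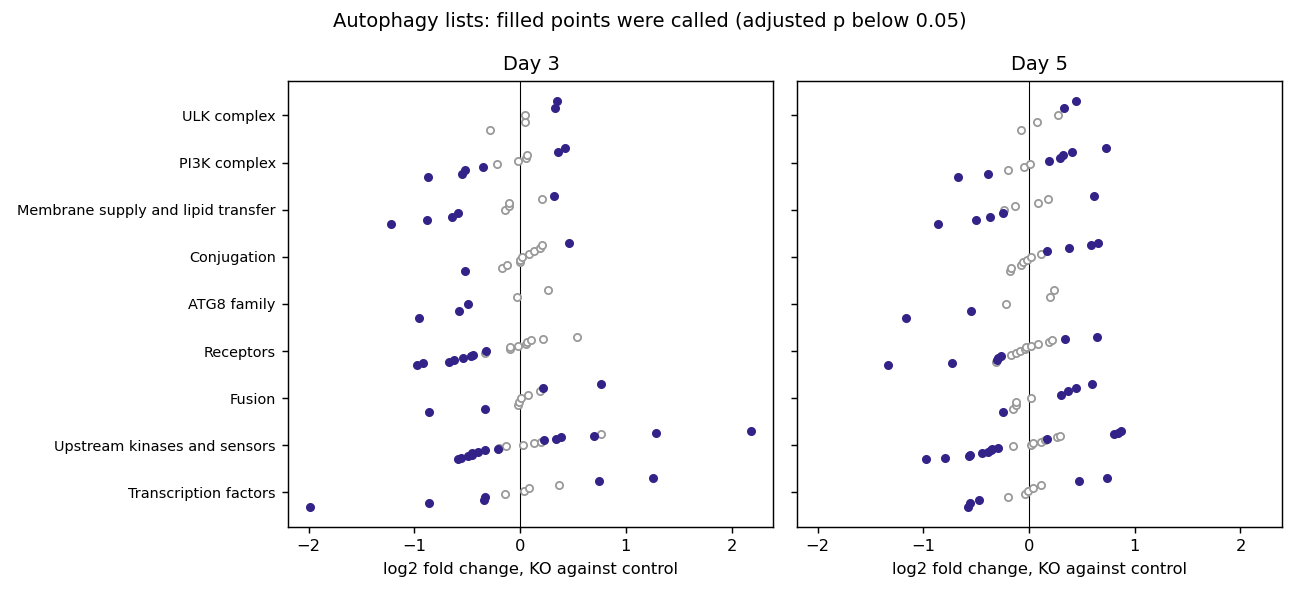
Log2 difference between KO and control cells (horizontal axis) of every gene of each autophagy list (vertical axis), members included, at day 3 and day 5, with 1 point per gene, filled at an adjusted p under 0.05. In the receptor list 8 of 17 genes are lower and 0 higher at day 3, and 5 are lower and 2 higher at day 5.

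Of the receptors 8 of 17 were lower and 0 higher at day 3 (47.1% lower, against 26.2% of all tested genes lower and 24.6% higher), with a list median of -0.32 log2 units. At day 5, 5 were lower and 2 higher (41.2% called, against 52.5%). At day 3, beside Sqstm1, Tex264, a receptor for endoplasmic reticulum, was at -0.67 (adjusted p = 8.91e-06) and Phb2, a mitochondrial inner membrane receptor, at -0.63 (adjusted p = 0.000104). Optn (optineurin) was at -0.47 at day 3 (adjusted p = 0.0374), and at 0.18 at day 5 (adjusted p = 0.315). Nbr1, built like p62, was at -0.02 (adjusted p = 0.911), and Tax1bp1 at 0.05 (adjusted p = 0.532). Bnip3, a mitophagy receptor, was at -1.34 at day 5 (adjusted p = 8.68e-05).

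Among genes of the Beclin 1 lipid kinase complexes, 6 of 10 passed at day 3 (2 higher, 4 lower) and 7 at day 5 (5 higher, 2 lower), or 60% and 70% against 50.9% and 52.5% of all tested genes. Bcl2l1, whose product BCL-XL binds Beclin 1, was at -0.88 (adjusted p = 1.21e-05) and -0.67 (adjusted p = 2.29e-05) on those days. Uvrag was at -0.55 at day 3 (adjusted p = 0.000544) and -0.39 at day 5 (adjusted p = 0.0019). Atg14, the subunit that directs the complex to autophagosome formation, was at -0.22 at day 3 (adjusted p = 0.105), with every KO library below every control, and at 0.73 at day 5 (adjusted p = 1.92e-05). Its change of effect was 0.94 (adjusted p = 0.000937), and between the days it fell by 0.95 log2 units in control cells (adjusted p = 5.73e-06).

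Of 9 membrane supply and lipid transfer genes, 5 passed on each day, 1 higher and 4 lower (55.6%, against 50.9% and 52.5% of all tested genes). Tmem41b, an endoplasmic reticulum scramblase, was at -1.22 (adjusted p = 8.26e-07) at day 3 and -0.87 (adjusted p = 3.14e-06) at day 5. Atg2b, a lipid transfer protein, was at -0.65 at day 3 (adjusted p = 3.52e-05) and -0.37 at day 5 (adjusted p = 0.000846). Vmp1, a scramblase like Tmem41b, was at 0.32 at day 3 (adjusted p = 0.0146) and 0.61 at day 5 (adjusted p = 4.08e-05).

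In the conjugation list 2 of 11 passed at day 3 (1 higher, 1 lower) and 4 at day 5, all 4 higher. These are 18.2% and 36.4% of the list, against 50.9% and 52.5% of all tested genes called and 26.3% higher at day 5. Atg12, the partner of ATG5, was at 0.46 (adjusted p = 0.000142) and 0.65 (adjusted p = 1.62e-06), while Atg5 itself passed on neither day. Of the ATG8-processing proteases, Atg4d was at -0.52 at day 3 (adjusted p = 0.0228) and -0.17 at day 5 (adjusted p = 0.333), and Atg4c at 0.20 (adjusted p = 0.138) and 0.38 (adjusted p = 0.00329). In the fusion list 4 of 9 passed at day 3 (2 higher, 2 lower) and 5 at day 5 (4 higher, 1 lower). These are 44.4% and 55.6% of the list, against 50.9% and 52.5% of all tested genes. Stx17, the autophagosomal SNARE, was at 0.76 (adjusted p = 4.25e-05) and 0.59 (adjusted p = 6.54e-05). The tether Epg5 was at -0.86 at day 3 (adjusted p = 1.44e-06) and -0.13 at day 5 (adjusted p = 0.125), and Vps39 of the HOPS complex at 0.37 at day 5 (adjusted p = 0.00046).

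Of 20 upstream kinases and nutrient sensors, 14 passed at day 3 (6 higher, 8 lower) and 13 at day 5 (4 higher, 9 lower), or 70% and 65% against 50.9% and 52.5% of all tested genes. Gsk3b, whose kinase is known to phosphorylate TIP60 upstream of ULK1 acetylation, was at -0.59 at day 3 (adjusted p = 7.56e-05). Sesn3, a sestrin that restrains mTORC1, was at 2.19 at day 3 (adjusted p = 4.21e-06), whereas Sesn2 was at -0.50 (adjusted p = 0.00236). At day 5 Prkag1, a subunit of the energy sensor AMPK, was at -0.80 (adjusted p = 3.43e-07), and Mlst8, a subunit of the mTOR complexes, at 0.80 (adjusted p = 1.19e-06). Of 10 transcription factors 6 passed at day 3 (2 higher, 4 lower) and 5 at day 5 (2 higher, 3 lower). These are 60% and 50% of the list, against 50.9% and 52.5% of all tested genes. The stress factors Ddit3 and Atf4 were at -1.98 (adjusted p = 5.67e-08) and -0.86 (adjusted p = 4.66e-05) at day 3. At day 5 Tfe3, a relative of TFEB, was at -0.48 (adjusted p = 1.12e-05), and Zkscan3, known as a repressor of autophagy genes, at 0.47 (adjusted p = 0.000119), after 0.03 at day 3 (adjusted p = 0.816).

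Over the 14 libraries, the genes whose log2 CPM was most like that of Ulk1 were Tmed3 (Pearson's r = 0.980), Asah2 (0.979) and Sox4 (0.978). For Sqstm1 they included Cln8 (r = 0.983) and Zkscan17 (0.974). Among pairs of members the highest r was 0.868, for Map1lc3a and Gabarapl1. Kat5 had r = -0.919 with Ulk1 and 0.844 with Map1lc3a. These correlations are descriptions over libraries that share group, litter and depth, and carry no test.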

How the data were processed

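RNA-seq of 14 MEF libraries (stranded mRNA, 80-base paired-end reads) was analysed from the deposited raw counts per gene, which the authors made with featureCounts on mm10, per the submitters' processing notes. The aligner, annotation release and strand setting were not given in the sources used here. Entrez identifiers were joined to RefSeq symbols (25275 of 26270 matched). The 909 rows without an identifier held 0.194% to 0.315% of counts and were left out, as were 112 sex-specific genes (Xist, Tsix and those of the Y chromosome). edgeR 4.0.16 (R 4.3.3) was run with filterByExpr, TMM factors and robust quasi-likelihood fits of 1 mean per group over all libraries, with Benjamini-Hochberg adjustment over 14327 genes. Libraries of 1 embryo at both days are not independent, and the main fit did not model this. Its p-values rest on the spread between these libraries and do not cover differences between litters. Single genes were also tested by exact permutation. Wider-list genes were named by a fixed rule: for KO against control at each day, the 2 called non-members per list with the smallest adjusted p. Optn, Nbr1, Tax1bp1, Sesn2, Atg101 and Gabarapl2 were named outside it after their values were seen. RPKM used the files' gene lengths. Correlations used log2 CPM with a prior count of 2. The genes most like Ulk1 and Sqstm1 were the 3 with the highest correlation for each, of which 1 is not reported here. Members and lists were chosen with earlier results of these data known, and the GC box motif after the sequences were seen. The procedure was tested on simulated counts with few changed genes and independent libraries. That setting does not cover the many called genes and shared embryos of these data. Alternatives were DESeq2 1.42.0, other scalings and filters, blocks, sex, and each library left out. Replicate numbers did not pair the genotypes, with same-number correlations of -0.166 to 0.428, whereas embryo labels pair the days by animal. Same-embryo correlations between the days were no higher, at -0.0229 to 0.204, so the embryo pairing rests on the labels. No pair of libraries agreed within sampling noise (chi-square per degree of freedom 3.29 to 79).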

Additional observations from a re-analysis of the deposited data

Results flagged for a closer look

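Wipi1 in day 5 control cells had a highest library, replicate 4, of 133.671 CPM, far above the other 3 (90.1 to 94.6 CPM). Map1lc3b in day 5 KO cells had a lowest library, replicate 2, of 110.528 CPM, set apart from the other 3 near 122 CPM. Of 20 groups of 4 libraries examined in this way, chance alone marks about 1 in 20. The KO effect on Sqstm1 differed between the days by 0.898293 log2 units (edgeR's quasi-likelihood test, adjusted p = 0.00154). KO cells were lower in all 3 day 3 libraries than every day 3 control, and the groups overlapped at day 5.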

How the results depend on the processing

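Over all alternatives the called KO differences of the members kept their direction. The reversals concern differences that did not pass, and their cause was not tested. With upper-quartile factors they were 0.0165 for Wipi1 at day 3, 0.0945 for Sqstm1 and 0.0461 for Ulk2 at day 5, 0.0216 for Ulk2 and 0.0224 for Gabarapl1 between the days in KO cells, and 0.01999 for Ulk1 between the days in control cells. With total counts only they were 0.0470 for Sqstm1 at day 5, 0.0429 for Map1lc3a and 0.0777 for Map1lc3b in the change of effect, and 0.0812 for Atg5, 0.104 for Ulk2, 0.104 for Gabarapl1 and 0.0459 for Map1lc3b between the days in KO cells. For Ulk1 between the days in control cells the value was 0.0021 with no low-count filter and 0.000616 in a fit of those 2 groups. Replicate numbers do not pair the genotypes. With the replicate number as a replicate block the values were -0.00326 for Ulk2 at day 3, 0.0574 for Map1lc3a and 0.108 for Map1lc3b in the change of effect, and 0.00869 for Ulk2, 0.0367 for Gabarapl1 and 0.00542 for Map1lc3b between the days in KO cells. That block lost the call of Rb1cc1 at day 3 (adjusted p = 0.0747) and gained Map1lc3a between the days in control cells (-0.30, adjusted p = 0.0264). With the embryo as a replicate block they were 0.0527 for Map1lc3a and 0.0763 for Map1lc3b in the change of effect, and -0.0721 for Rb1cc1 between the days in control cells. The embryo block called 2 members for the change of effect, with 1561 of 14327 tested genes called, and changed no member's call in the day contrasts. With sex as a factor the values were -0.0179 for Ulk2 at day 3 and 0.0251 for Map1lc3b in the change of effect. The sex fit called 2 members for the change of effect (2478 of 14327 tested genes) and 2 between the days in KO cells (2086 genes). It called 4 members for KO against control at day 3 (6603 genes), 5 at day 5 (6776) and 4 between the days in control cells (5661). With day 3 control replicates 1 and 2 summed, Map1lc3b was at 0.0290 in the change of effect, and Rb1cc1 at day 3 lost its call (adjusted p = 0.0611).

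Tested against a 1.5-fold change, the members called were 1 and 0 for KO against control at day 3 and day 5, 0 for the change of effect, 0 between the days in KO and 1 in control cells. Of all tested genes 2279, 1710, 167, 138 and 1141 passed, in the same order. Leaving out each library in turn gave 1275 to 2750 genes and 1 to 2 members for the change of effect, the lowest gene count without day 3 control replicate 3. It gave 1024 to 1605 genes between the days in KO cells, the lowest without day 3 KO replicate 4. The same leave-one-out ranges crossed 0 at day 5 for Atg5 (-0.00147 to 0.0392), Sqstm1 (-0.0720 to 0.0592) and Ulk2 (-0.136 to 0.0218). They did so in the change of effect for Map1lc3a (-0.154 to 0.0404) and Map1lc3b (-0.189 to 0.157). Between the days in KO cells the ranges were -0.0784 to 0.0314 for Atg5, -0.100 to 0.0449 for Gabarapl1, -0.154 to 0.0217 for Map1lc3b and -0.0413 to 0.0166 for Ulk2. In control cells they were -0.227 to 0.119 for Map1lc3b, -0.0411 to 0.138 for Rb1cc1 and -0.104 to 0.0211 for Ulk1.

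Upper-quartile factors moved the median log2 difference of all genes by 0.125 at day 3 and 0.119 at day 5, and the share of higher calls from 48.4% to 62.1% and from 50.1% to 64.4%. Total counts only moved the median by 0.115 between the days in KO cells. The share of higher calls then moved from 41.3% to 72.8%, and from 50.02% to 68.1% for the change of effect. Atg5 at day 3 passed with upper-quartile factors (adjusted p = 0.0031), with DESeq2's factors in edgeR (0.0404) and with DESeq2 (0.0436). Upper-quartile factors also called Becn1 at day 3 (adjusted p = 0.0337) and Map1lc3b at day 5 (adjusted p = 0.0494). Litter, sex and genotype overlap in this design, and the shallowest library held 2187168 counts.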
